A study of Homo sapiens with 9 samples.

Results

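NFIL3, DBP, TEF and HLF are 4 basic leucine zipper (bZIP) transcription factors that bind the same short DNA element, the D-box. They were described here in H295R, an established line from a human adrenocortical carcinoma whose cells make steroids. The 4 genes were matched by symbol in the array annotation, and all 10 of their probe sets that carry a single symbol were read one by one, out of 41091 such probe sets for 19775 genes. NFIL3 had 1 probe set, DBP 2, TEF 4 and HLF 3. The genes were chosen by these same array values, because NFIL3 and DBP levels differed between treatments, so their differences are given with errors and intervals but without p-values.

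Cells had been treated for 3 h with 100 nM torcetrapib (test compound CP-529414, an inhibitor of cholesteryl ester transfer protein), with 100 nM angiotensin II, the peptide hormone that makes the adrenal cortex release aldosterone, or with DMSO, the vehicle. Each of the 3 groups has 3 Affymetrix arrays, numbered here as replicates 1 to 3 in the order of their titles. The labels do not say whether arrays with the same number in different groups were matched. Every array comes from the same cell line, with no genetic change named in the labels. The study asked whether inhibitors of this class give a transcriptional response in adrenal cells like that of the renin-angiotensin system. With 1 time per treatment, no rhythm could be read. The labels do not say whether arrays came from separate cultures, so errors and p-values cover only the spread among these arrays, which could be technical.

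DBP, TEF and HLF carry a domain rich in proline and acidic amino acids (PAR) and activate genes from the D-box, while NFIL3, also called E4BP4, lacks that domain and mostly represses from the same element. In mouse liver the PAR factors and NFIL3 cycle in opposite phases, and the core clock drives Dbp through E-boxes. NFIL3 is also known as a gene that many cell types switch on soon after hormone, cytokine or cAMP signals.

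The promoter windows below lie at annotated starts of these genes and show which of the searched letters lie there. Each is a RefSeq window on build GRCh38.p14 of 300 bases, from 250 before to 50 after an annotated start, on the strand of the gene and 5′ to 3′, and the capitals mark matches. The letters searched on both strands were the D-box, TTATGTAA or TTACGTAA, the cAMP response element (CRE), TGACGTCA, its core, TGACG, which also lies within the CRE, and the E-box, CACGTG. Positions count the start base as 0. The NFIL3 and DBP windows are shown whole because the results turn on these genes, and the TEF and HLF stretches because they hold a match. NFIL3 lies at chr9:91409045-91483497 and DBP at chr19:48630030-48637379, both on the minus strand; TEF lies at chr22:41367455-41399326 and HLF at chr17:55264960-55325187, both on the plus strand.
NFIL3, chr9:91424577-91424876: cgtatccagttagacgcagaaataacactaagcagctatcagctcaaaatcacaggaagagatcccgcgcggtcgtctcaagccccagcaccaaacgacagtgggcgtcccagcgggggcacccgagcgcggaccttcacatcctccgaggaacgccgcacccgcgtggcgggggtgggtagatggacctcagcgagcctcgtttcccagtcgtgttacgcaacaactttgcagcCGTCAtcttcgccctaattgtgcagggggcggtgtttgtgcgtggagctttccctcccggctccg
DBP, chr19:48637330-48637629: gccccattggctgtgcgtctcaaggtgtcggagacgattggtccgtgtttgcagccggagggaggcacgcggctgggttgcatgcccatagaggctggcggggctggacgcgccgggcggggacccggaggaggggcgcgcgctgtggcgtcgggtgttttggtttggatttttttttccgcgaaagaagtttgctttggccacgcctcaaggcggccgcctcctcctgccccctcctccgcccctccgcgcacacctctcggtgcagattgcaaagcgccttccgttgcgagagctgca
TEF, chr22:41367240-41367285: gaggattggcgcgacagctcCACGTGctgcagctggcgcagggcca
TEF, chr22:41381729-41381774: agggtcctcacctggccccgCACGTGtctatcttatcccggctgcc
HLF, chr17:55264933-55264980: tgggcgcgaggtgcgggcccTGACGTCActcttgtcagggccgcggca

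NFIL3 has 2 annotated starts with a window, and the one shown holds a CRE core on the opposite strand, at positions -15 to -11. Both windows lie inside the NFIL3 span, and none covered its upstream end, at 91483497, so that end was not searched. The other NFIL3 window, chr9:91423783-91424082, held none of the letters searched, and nor did the DBP window. Both TEF windows hold an E-box, at positions -195 to -190 and -193 to -188. One of the 2 HLF windows holds a full CRE at positions -7 to 0, and the other, chr17:55265972-55266271, held no match. None of these windows held a D-box. Among all 35116 windows, 24.6% held the CRE core, 1.85% the CRE, 7.26% the E-box and 1.01% the D-box, so the core is common and the full CRE is not. A match is only a run of letters, and its use in these cells was not tested.

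NFIL3 was the member that differed most between groups. Its probe set 203574_at read 9.60, 9.82 and 9.67 (log2) on the torcetrapib arrays, 11.65, 11.59 and 11.58 on the angiotensin II arrays and 8.72, 8.57 and 8.78 on the DMSO arrays. Every angiotensin II array lay above every torcetrapib array, and every torcetrapib array above every DMSO array, with no overlap. The means were 9.70 ± 0.11 with torcetrapib, 11.61 ± 0.04 with angiotensin II and 8.69 ± 0.11 with DMSO (SD, n = 3 each).

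Torcetrapib minus DMSO was 1.00 ± 0.07 for NFIL3 on the log2 scale (SE; 95% interval 0.86 to 1.15), a 2.01-fold higher level. Angiotensin II minus DMSO was 2.91 ± 0.07 (2.77 to 3.06), a 7.54-fold higher level. Both comparisons use the same DMSO arrays. Ranked from the highest difference down over 41091 probe sets, NFIL3 was number 95 with torcetrapib and number 18 with angiotensin II. Set directly against each other, torcetrapib minus angiotensin II was -1.91 ± 0.07 (-2.06 to -1.76), so that NFIL3 was 3.76-fold lower with torcetrapib. Leaving out any single array kept the difference from DMSO between 0.94 and 1.05 with torcetrapib and between 2.86 and 2.96 with angiotensin II.

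**Figure D1:**
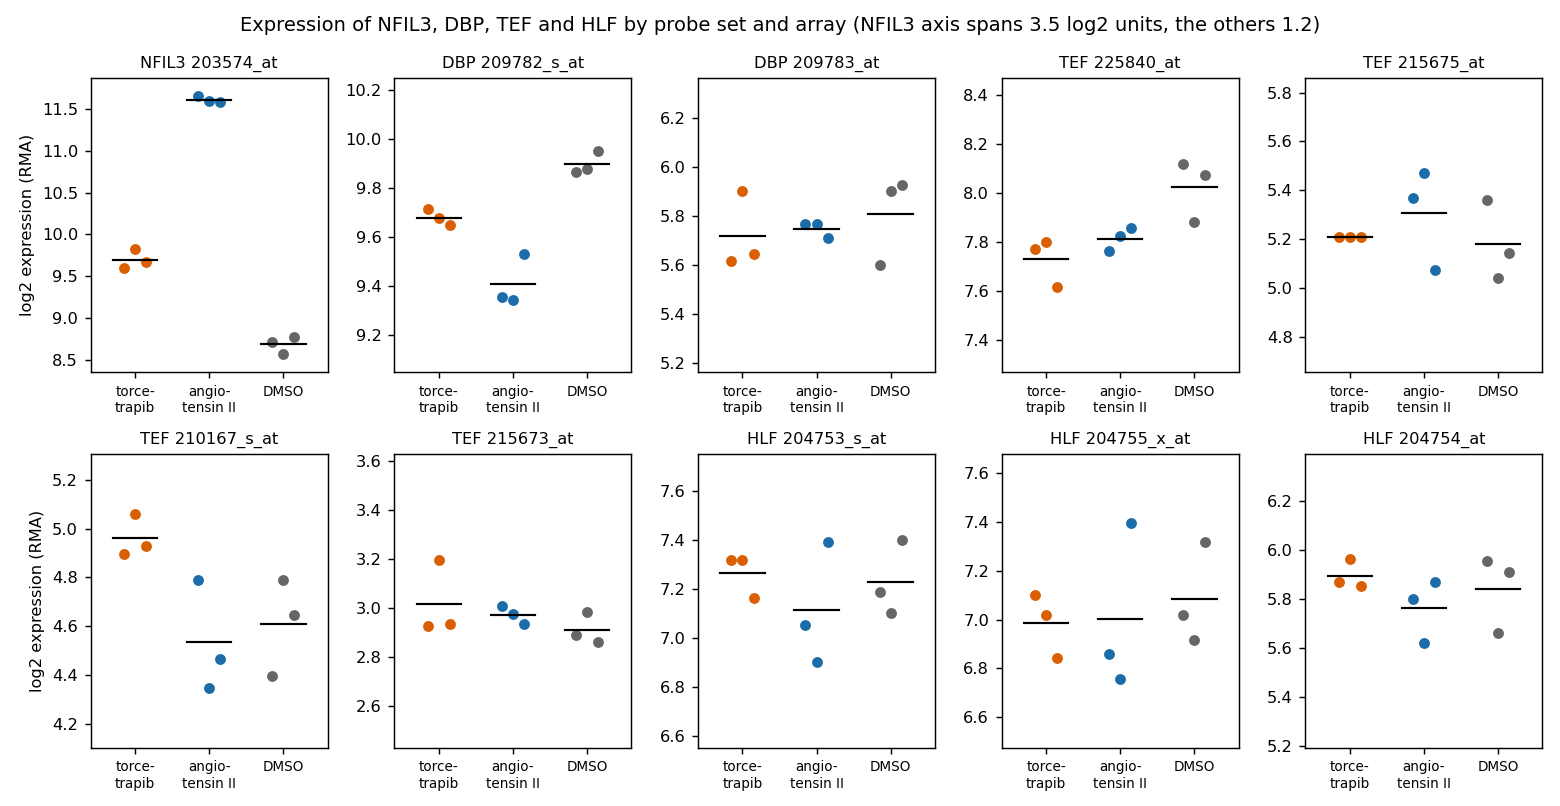
Log2 expression of the 10 probe sets of NFIL3, DBP, TEF and HLF on each of the 9 arrays (points) with group means (bars), torcetrapib left, then angiotensin II and DMSO. NFIL3 separates all 3 groups and DBP 209782_s_at does so in the reverse order, while the HLF panels overlap; the NFIL3 axis spans a wider range than the others.

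DBP, the PAR factor most closely tied to the clock, was lower with both treatments on one of its probe sets and did not separate on the other. Probe set 209782_s_at read 9.71, 9.68 and 9.65 with torcetrapib, 9.35, 9.34 and 9.53 with angiotensin II and 9.87, 9.88 and 9.95 with DMSO. The groups again did not overlap, with DMSO highest, torcetrapib between and angiotensin II lowest, the reverse of the order for NFIL3. Torcetrapib minus DMSO was -0.22 ± 0.06 (SE; -0.35 to -0.09), a 1.16-fold lower level. Angiotensin II minus DMSO was -0.49 ± 0.06 (-0.62 to -0.36), a 1.40-fold lower level, and torcetrapib minus angiotensin II was 0.27 ± 0.06 (0.14 to 0.40).

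The other DBP probe set, 209783_at, did not separate the groups. It was dimmer, with a mean of 5.76 over the 9 arrays against 9.66 for 209782_s_at. It read 5.62, 5.90 and 5.64 with torcetrapib, 5.77, 5.77 and 5.71 with angiotensin II and 5.6, 5.90 and 5.93 with DMSO. All 3 groups overlapped, and DMSO replicate 1 lay below every other array. Its difference from DMSO was -0.09 (95% interval -0.33 to 0.16) with torcetrapib and -0.06 (-0.31 to 0.18) with angiotensin II. Torcetrapib minus angiotensin II was -0.03 (-0.27 to 0.22). With torcetrapib the interval against DMSO includes -0.22, the difference of 209782_s_at, so the 2 probe sets are not shown to differ there. The interval for angiotensin II does not reach -0.36, the end nearest to 0 of the interval of 209782_s_at, so the DBP result with angiotensin II stands on 1 of its 2 probe sets, and the difference between the probe sets was not tested. The suffix _s_at marks a probe set that matches several transcripts, and the average of both DBP probe sets differed from DMSO by -0.15 (-0.33 to 0.02) with torcetrapib and by -0.28 (-0.45 to -0.10) with angiotensin II.

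TEF, the PAR factor with the broadest expression across tissues, gave probe sets that went different ways. Its brightest, 225840_at, read 7.77, 7.80 and 7.62 with torcetrapib, 7.76, 7.82 and 7.86 with angiotensin II and 8.12, 7.88 and 8.07 with DMSO. Both treated groups lay below all DMSO arrays, with DMSO replicate 2 close to them, and they overlapped each other. The differences from DMSO were -0.30 (-0.48 to -0.11) with torcetrapib and -0.21 (-0.39 to -0.03) with angiotensin II, and torcetrapib minus angiotensin II was -0.08 (-0.27 to 0.10).

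The _s_at probe set of TEF, 210167_s_at, went the opposite way with torcetrapib. It read 4.90, 5.06 and 4.93 with torcetrapib, 4.79, 4.35 and 4.47 with angiotensin II and 4.40, 4.79 and 4.65 with DMSO. All torcetrapib arrays lay above all others, while angiotensin II and DMSO overlapped. Its difference from DMSO was 0.35 (0.07 to 0.63) with torcetrapib and -0.08 (-0.36 to 0.20) with angiotensin II, and torcetrapib minus angiotensin II was 0.43 (0.15 to 0.71).

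The remaining TEF probe sets did not separate the groups. Probe set 215675_at read 5.21 on all 3 torcetrapib arrays, between 5.07 and 5.47 with angiotensin II and between 5.04 and 5.36 with DMSO. Its 3 torcetrapib values are equal to every digit, as happened in 269 of the 41091 probe sets, so the spread there is understated. Ties are common in the deposited values, and 20525 of the 41091 probe sets had equal values on at least 2 arrays. Probe set 215673_at stayed between 2.86 and 3.20 on all 9 arrays, near the lowest value in the table, 2.5. All intervals of these 2 probe sets included 0. The mean over the 4 TEF probe sets weighs dim and bright ones alike. It differed from DMSO by 0.05 (-0.14 to 0.24) with torcetrapib and by -0.03 (-0.21 to 0.16) with angiotensin II, so no direction for the gene as a whole can be given.

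HLF, the PAR factor first known from a leukaemia fusion gene, did not separate the groups on any of its 3 probe sets. Probe set 204753_s_at read 7.32, 7.32 and 7.16 with torcetrapib, 7.05, 6.90 and 7.39 with angiotensin II and 7.19, 7.10 and 7.40 with DMSO. Replicate 3 was the highest array in the angiotensin II and DMSO groups, and the same held for 204755_x_at, at 7.39 with angiotensin II and 7.32 with DMSO. Those arrays also had the highest upper quartiles of log2 values over all genes, 7.71 each, where the arrays ranged from 7.57 to 7.71; the part this plays was not tested. The differences from DMSO of the 3 HLF probe sets ran from -0.10 to 0.05 with torcetrapib and from -0.12 to -0.08 with angiotensin II, and every interval included 0. The widest, for 204755_x_at with torcetrapib, ran from -0.44 to 0.24, so a difference within that range cannot be told from none.

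**Figure D2:**
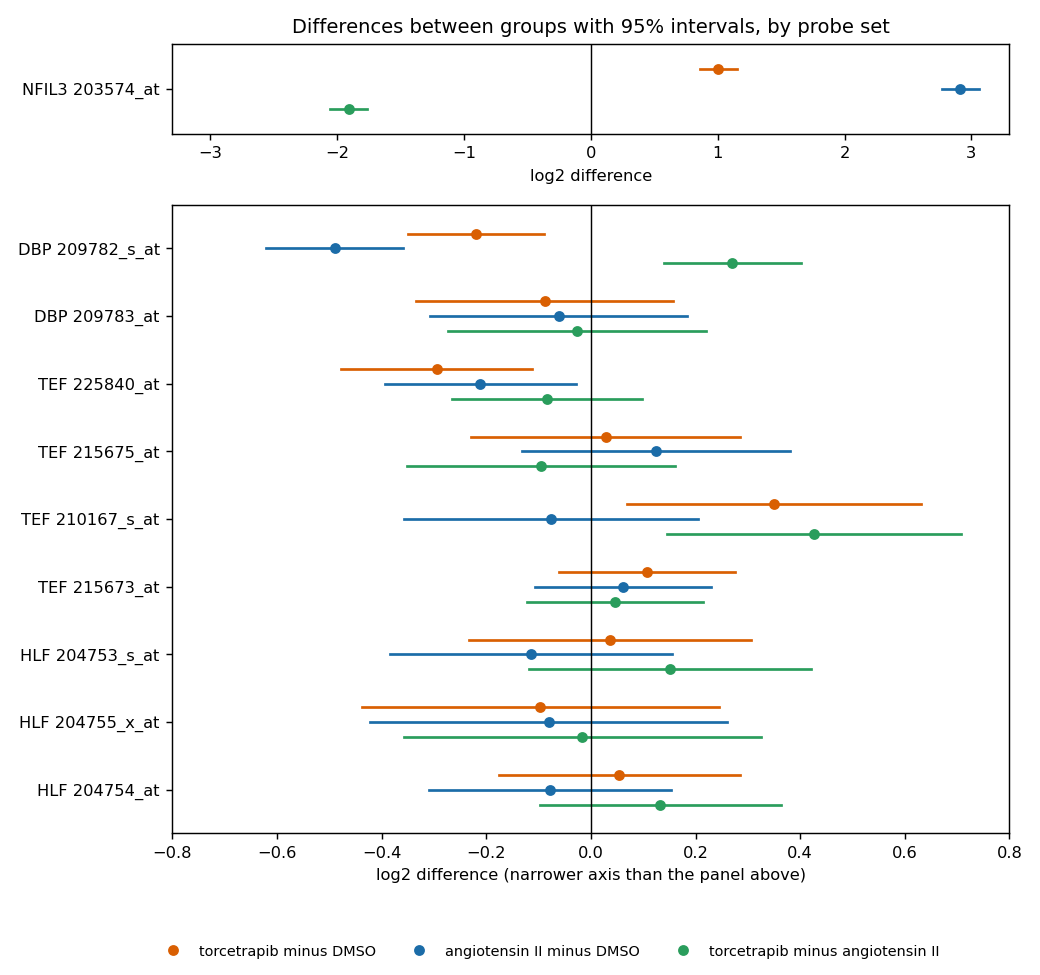
Log2 differences with 95% intervals for each of the 10 probe sets, torcetrapib minus DMSO, angiotensin II minus DMSO and torcetrapib minus angiotensin II, with NFIL3 on a wider axis of its own. The intervals of NFIL3 and DBP 209782_s_at lie away from 0 in all 3 comparisons, and the 3 HLF probe sets and DBP 209783_at span 0 in each. The intervals are unadjusted and the genes were chosen by these same values, so this is a description and not a test.

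Counted over the members, 2 of 10 probe sets lay wholly above DMSO with torcetrapib, where 8.92% of all probe sets did, and 2 lay wholly below, where 8.35% did. With angiotensin II 1 lay above, where 7.95% of all probe sets did, and 2 lay below, where 7.34% did. Between the treatments 2 lay higher with torcetrapib than with angiotensin II, where 14.4% of all probe sets did, and 1 lay lower, where 14.8% did. These values chose the members, so nothing follows from the counts.

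The control-gene index of RNA quality was higher on every torcetrapib array than on any DMSO array. The 5′ minus 3′ signal of the ACTB and GAPDH control probe sets, an index of RNA integrity and labelling, averaged -0.24 ± 0.03 on the torcetrapib arrays, -0.62 ± 0.02 on the angiotensin II arrays and -0.50 ± 0.22 on the DMSO arrays (log2; SD, n = 3 each). DMSO replicate 2, at -0.28, stood beside the torcetrapib arrays, and on it TEF 225840_at was the lowest and TEF 210167_s_at the highest of the DMSO arrays. With the index in the model, torcetrapib minus DMSO became -0.16 for TEF 225840_at (-0.39 to 0.07) and 0.12 for TEF 210167_s_at (-0.24 to 0.47), so that both intervals included 0. NFIL3 kept a difference of 1.08 from DMSO and of -1.81 from angiotensin II with torcetrapib in the same model. There DBP 209783_at was at -0.27 (-0.60 to 0.05) from DMSO and -0.29 (-0.70 to 0.11) from angiotensin II with torcetrapib. HLF 204754_at was at 0.21 (-0.10 to 0.52) and 0.36 (-0.03 to 0.75), and TEF 215675_at at 0.22 (-0.11 to 0.56) and 0.19 (-0.23 to 0.61). For DBP 209782_s_at torcetrapib minus DMSO stayed between -0.24 and -0.15 under all alternatives. The index ran from -0.275 to -0.219 with torcetrapib and from -0.627 to -0.597 with angiotensin II. Index and treatment can therefore hardly be told apart between these 2 groups.

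The cells carried the steroidogenic markers of their origin at high levels. Of 7 measured adrenocortical markers, the steroidogenic genes STAR, CYP11A1, CYP17A1, FDX1 and HSD3B2 were between 8.61 and 11.84 (log2) in DMSO, while the factor NR5A1 and the receptor MC2R were at 7.08 and 6.93; CYP21A2 was not analysed here. With torcetrapib 1 of the 7 passed limma at an adjusted p of 0.05, where 0.819% of all genes did: FDX1, the electron carrier of mitochondrial steroid synthesis, rose by 0.37 ± 0.07 (limma adjusted p = 0.0238), but this call was lost in 7 of 15 alternatives of processing, and the difference was 0.18 with the RNA index in the model. With angiotensin II 3 passed, where 4.64% of all genes did: FDX1 rose by 0.66 (limma adjusted p = 5.25e-05), MC2R by 0.41 (0.05, just inside the threshold, lost in 9 of 15) and STAR by 0.20 (0.00911, lost in 1 of 15). Between the treatments FDX1 alone of the 7 passed, where 9.88% of all genes did, and it was lower with torcetrapib, at -0.29 (limma adjusted p = 0.0137, lost in 4 of 15).

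Of 8 measured markers of other cells, not all were dim. The collagen COL1A1 was at 7.72 in DMSO, above NR5A1 and MC2R, and the chromaffin genes CHGA and PNMT were at 6.80 and 6.21. PECAM1, VWF and COL3A1 were at 5.96, 5.21 and 5.14, and the immune marker PTPRC and the catecholamine enzyme TH were at 3.49 and 3.92. None of the 8 passed limma against DMSO, where 0.819% of all genes did with torcetrapib and 4.64% with angiotensin II. At unadjusted limma p under 0.05 none passed with torcetrapib, where 11.9% of all genes did. The collagen gene COL3A1 alone passed at that level with angiotensin II, at 0.23, where 15.2% of all genes did. Between the treatments COL3A1 alone of the 8 passed, where 9.88% of all genes did, and it was lower with torcetrapib, at -0.36 (limma adjusted p = 0.0337, lost in 7 of 15 alternatives). What part these markers have in the results was not tested.

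The other bZIP factors place the members within their family. Of 49 further bZIP genes, 45 were measured, each read from its brightest probe set and tested with limma, with p-values adjusted by Benjamini-Hochberg over all 41091 probe sets. With torcetrapib 6 rose and none fell, where 0.445% of all genes rose and 0.374% fell; the median difference was 0.06 over the list and -0.03 over all genes. With angiotensin II 17 rose and none fell, where 2.74% of all genes rose and 1.91% fell; the medians were 0.12 and 0.01. The list was drawn up with earlier results of these data known, so its counts are not independent of them.

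The 6 bZIP genes that rose with torcetrapib were FOS at 1.04 ± 0.07 (limma adjusted p = 4.96e-06), ATF3 at 0.91 ± 0.07 (4.59e-05), JUN at 0.42, MAFF at 0.41, JUNB at 0.29 and CREM at 0.28 (log2 differences ± SE). FOS, JUN and JUNB are subunits of the AP-1 dimer, ATF3 is a stress-induced factor of the ATF family, MAFF is a small MAF protein and CREM belongs to the cAMP-responsive CREB family. FOS had the same value, 7.59, on all 3 torcetrapib arrays, against 6.55 ± 0.04 with DMSO, so its spread is understated. Only FOS passed under all 15 alternatives of processing; the adjusted p of ATF3 reached 0.0711 without _s_at and _x_at probe sets, and MAFF, CREM, JUN and JUNB lost their calls in 9, 6, 5 and 4 of 15. Without torcetrapib replicate 1, 2 or 3 the count of 6 became 3, 2 and 3.

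With angiotensin II the largest changes among the other bZIP genes were those of FOSB at 3.86 ± 0.13 (limma adjusted p = 1.81e-09), ATF3 at 3.77 ± 0.07 (4.94e-12), FOS at 2.82 ± 0.07 (3.63e-11), MAFF at 2.09 ± 0.09 (1.17e-08) and CREB5 at 1.67 ± 0.10 (3.16e-07). The NFIL3 difference of 2.91 lay between those of ATF3 and FOS. FOSB is a further AP-1 subunit and CREB5 a CRE-binding factor. These 5 passed under all 15 alternatives. FOSB and CREB5 gave 0.50 and 0.43 with torcetrapib and did not pass there.

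Set directly against angiotensin II, torcetrapib gave lower levels for 17 of the 45 bZIP genes and a higher level for none, where 5.86% of all genes were lower and 4.03% higher. The median difference was -0.16 over the list and -0.04 over all genes. The largest were FOSB at -3.36 ± 0.13 (limma adjusted p = 1.42e-08), ATF3 at -2.86 ± 0.07 (4.59e-10), FOS at -1.78 ± 0.07 (7.98e-09), MAFF at -1.69 ± 0.09 (1.72e-07) and CREB5 at -1.25 ± 0.10 (7.54e-06). NFIL3, at -1.91, lay between ATF3 and FOS here too. With the RNA index in the model the count of 17 became 11.

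**Figure D3:**
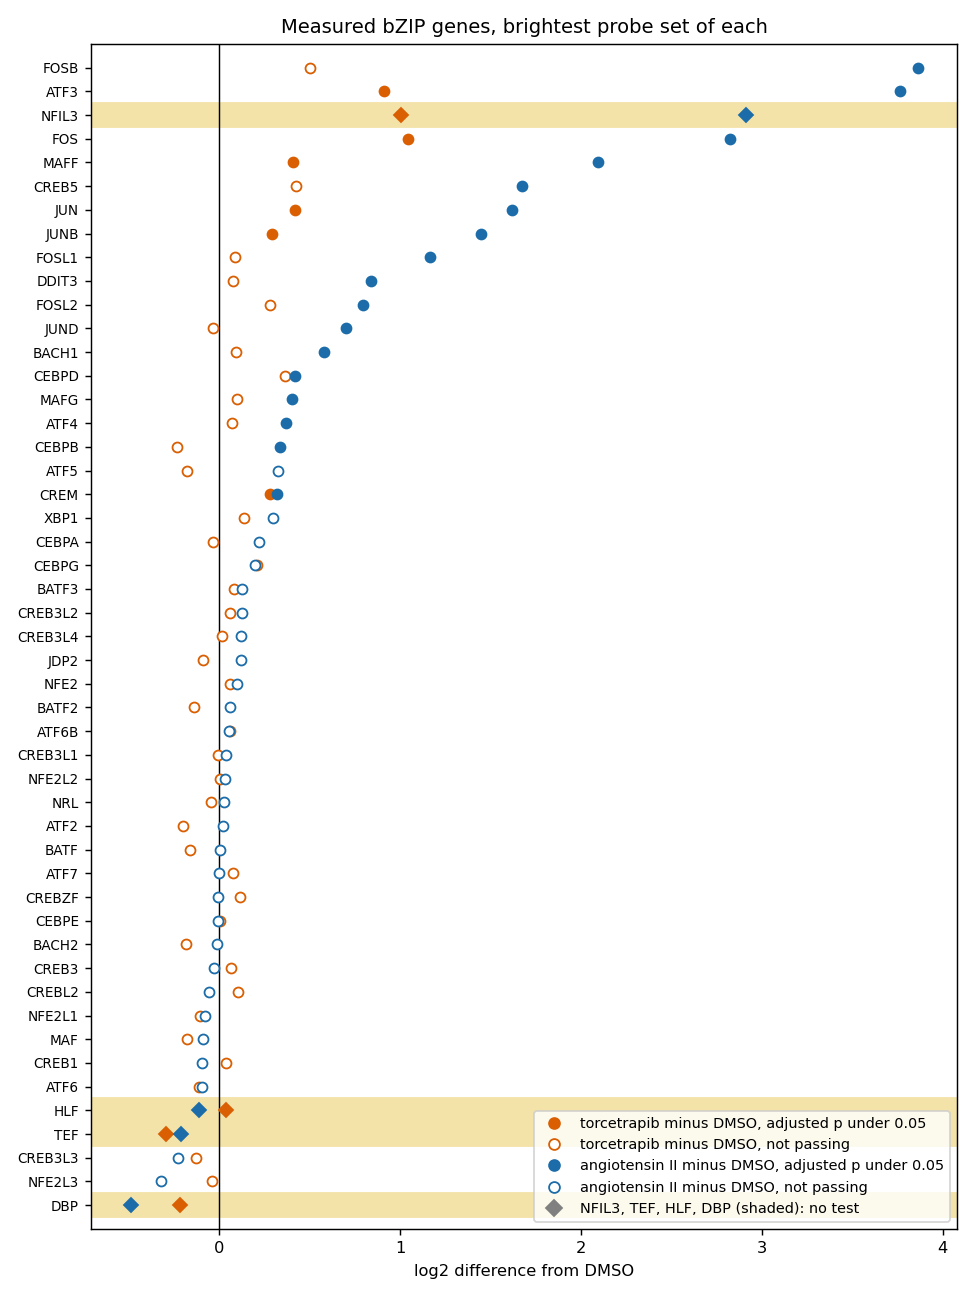
Log2 difference from DMSO of the 45 other measured bZIP genes and the 4 members (shaded diamonds, not tested), one row per gene by its brightest probe set, torcetrapib in orange and angiotensin II in blue, filled where the limma adjusted p was under 0.05. NFIL3 sits among FOSB, ATF3 and FOS at the top, and DBP is the lowest row for angiotensin II.

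The genes whose pattern over the 9 arrays was most like that of NFIL3 were FOS, MITF, C11orf96, PAQR9 and TRIB1. Likeness was the mean absolute distance of log2 values, each gene taken relative to its own DMSO mean, over 19774 genes. It was 0.097 for FOS, 0.12 for MITF and between 0.15 and 0.17 for the other 3. MITF, a basic helix-loop-helix leucine zipper factor, was 1.21 above DMSO with torcetrapib and 2.94 above with angiotensin II, and TRIB1, a pseudokinase, was 1.07 and 3.34 above.

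For DBP 209782_s_at the nearest genes were MTERF1, SNAI2, RMI1, ZKSCAN1 and TMEM74, at distances of 0.050 to 0.053. Their differences from DMSO ran from -0.29 to -0.19 with torcetrapib and from -0.51 to -0.42 with angiotensin II. SNAI2 encodes the repressor SLUG, whose gene is a target of the HLF fusion protein in leukaemia. It averaged 10.15 ± 0.03 with torcetrapib, 9.89 ± 0.12 with angiotensin II and 10.36 ± 0.01 with DMSO. These genes were picked for their likeness, so this is a description with no test.

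**Figure D4:**
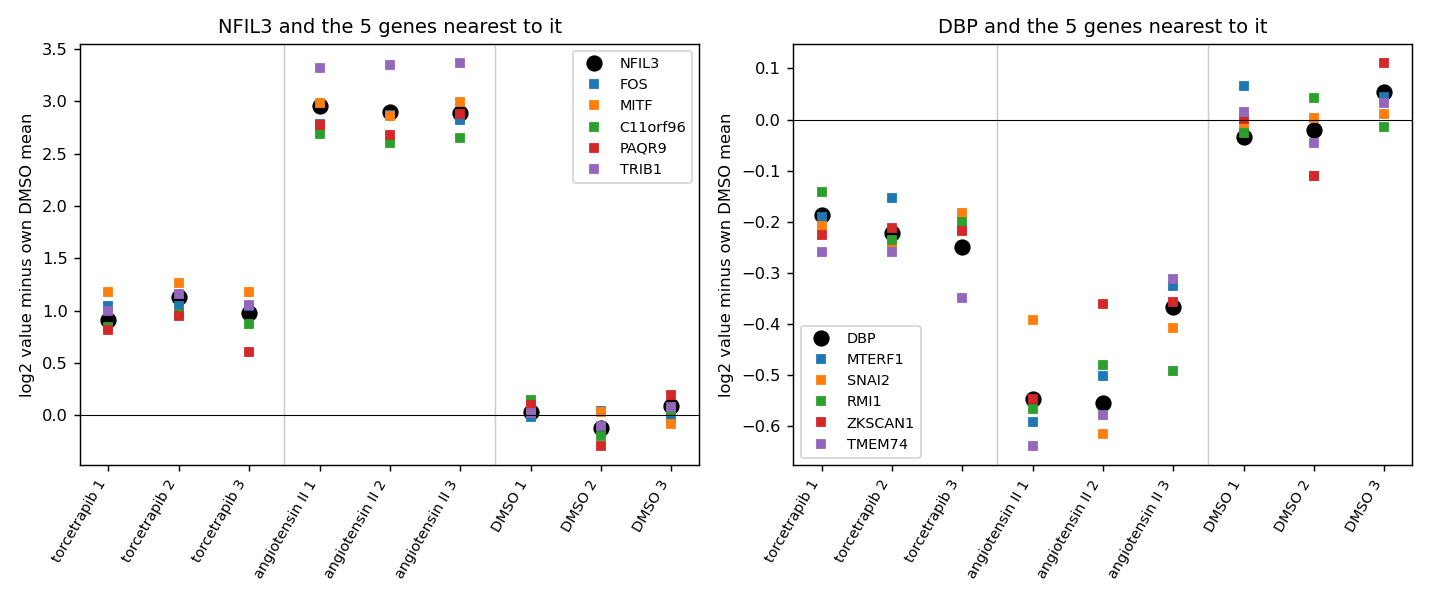
Log2 value minus the gene's own DMSO mean on each of the 9 arrays for NFIL3 with its 5 nearest genes (left) and DBP with its 5 nearest genes (right). All 6 genes on the left are highest with angiotensin II and lowest with DMSO, with torcetrapib between, and the 6 on the right run in the reverse order over a much smaller range.

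The clock genes that control the PAR factors in other tissues passed limma in small numbers against DMSO, and that number with angiotensin II depended on the processing. Of 15 regulators 12 were measured, and the others were not analysed here. With torcetrapib none passed limma, where 0.819% of all genes did, and 3 had an unadjusted p under 0.05, where 11.9% of all genes did. With angiotensin II BHLHE40, a helix-loop-helix repressor that acts on E-boxes, rose by 0.90 ± 0.05 (limma adjusted p = 4.89e-07) and was the only one of the 12 to pass, where 4.64% of all genes did; 8 of the 12 had an unadjusted p under 0.05, where 15.2% of all genes did. BHLHE40 averaged 9.50 ± 0.03 with torcetrapib, 10.38 ± 0.05 with angiotensin II and 9.48 ± 0.08 with DMSO, and torcetrapib minus DMSO was 0.01 (-0.10 to 0.13). The count with angiotensin II became 5 when only the brightest probe set of each gene was tested, 4 when the arrays were quantile normalised again and 4 with the RNA index in the model. It became 2 without DMSO replicate 2 and 3 without angiotensin II replicate 2, and the count with torcetrapib became 1 without DMSO replicate 2.

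CLOCK and BMAL1, the activators of DBP at E-boxes, differed from DMSO by -0.10 and 0.07 with torcetrapib and by -0.16 and 0.07 with angiotensin II, and neither passed. PER2, a clock repressor with a D-box in its promoter window, differed by 0.05 with torcetrapib and by 0.29 with angiotensin II (limma adjusted p = 0.847 and 0.0834). Between the treatments 7 of 12 clock genes had an unadjusted p under 0.05, against 23.2% of all genes, and 4 passed, against 9.88%: BHLHE40 at -0.88 (limma adjusted p = 8.41e-07), its paralog BHLHE41 at -0.36 (0.000521) and the repressor CRY1 at -0.24 (0.0471) were lower with torcetrapib, and the repressor NR1D2 at 0.20 (0.0265) was higher. The calls of CRY1 and NR1D2 were lost in 8 and 6 of 15 alternatives and that of BHLHE41 in 2. The count of 4 became 1 with the RNA index in the model, 7 when quantile normalised again, and 2 without angiotensin II replicate 3 and without torcetrapib replicate 2 or 3.

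Genes known as outputs of the D-box, mostly from mouse liver and from leukaemia cells, were read next. Of 17 listed, 16 were measured. A promoter window was given for 13 of the 17, and only 2 of these, CYP2A6 and ALB, held the D-box letters. SNAI2, ALAS1 and POR, named below, were not among those 2. None passed limma with torcetrapib, where 0.819% of all genes did, and 3 had an unadjusted p under 0.05, where 11.9% did. With angiotensin II SNAI2 fell by 0.47 ± 0.06 on the log2 scale (limma adjusted p = 0.000372) and was the only one to pass, where 4.64% of all genes did. With angiotensin II 2 had an unadjusted p under 0.05, where 15.2% did. Between the treatments 3 passed, where 9.88% of all genes did: the heme synthesis enzyme ALAS1, at -0.18 (limma adjusted p = 0.0297), and POR, the electron donor of cytochrome P450 enzymes, at -0.24 (0.00997), were lower with torcetrapib, and SNAI2, at 0.26 (0.0135), was higher. No further gene of the list had an unadjusted p under 0.05 in this comparison, where 23.2% of all genes did. The count with torcetrapib became 1 without DMSO replicate 2, and the count of 3 between the treatments became 1 without torcetrapib replicate 1 or 3. With the RNA index in the model none of the 3 passed, at limma adjusted p of 0.707 for ALAS1, 0.636 for POR and 0.523 for SNAI2, and their differences were -0.15, -0.17 and 0.24. In this comparison the index and the treatment can hardly be told apart. Several of the listed liver genes, such as CYP7A1 and F9, were dim in all groups.

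The D-box itself was then used to choose genes. Of 27305 genes with a promoter window, 347 (1.27%) held the letters, and 164 of those were measured. The clock genes PER2, PER3 and NR1D2 are among them, and their sites are shown with the D-box in capitals because they are the element that NFIL3 and the PAR factors bind. NR1D2 holds the letters TTATGTAA on the opposite strand, so its stretch reads their reverse complement.
PER2, chr2:238288590-238288629, minus strand: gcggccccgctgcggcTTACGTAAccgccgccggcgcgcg
PER3, chr1:7784098-7784137, plus strand: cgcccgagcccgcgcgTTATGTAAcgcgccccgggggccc
NR1D2, chr3:23945911-23945950, plus strand: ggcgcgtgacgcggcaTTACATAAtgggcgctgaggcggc

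With torcetrapib 3 of these 164 genes (1.83%) passed, against 0.852% of all measured genes with a window. With angiotensin II 4 (2.44%) passed, against 4.94%. Between the treatments 18 (11%) passed, against 10.4%. The median difference was -0.02 with torcetrapib and 0.03 with angiotensin II, beside -0.03 and 0.01 for all measured genes with a window. The share called among genes with the letters was thus close to the background, or moved by so few genes that no more can be read from it.

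The called genes with a D-box changed by small amounts. With torcetrapib LMNB1, a nuclear lamin, rose by 0.55 ± 0.10 (limma adjusted p = 0.0233), while CTNNA2, an alpha catenin, and COL15A1, a collagen, were at -0.24 and -0.19. These calls were lost in 5, 8 and 8 of 15 alternatives. With angiotensin II ATXN7, a subunit of a histone acetylase complex, rose by 0.31 ± 0.06 (limma adjusted p = 0.0109), and MRPL34, a mitochondrial ribosomal protein, KIF11, a spindle kinesin, and MARCHF7, a ubiquitin ligase, were at -0.26, -0.22 and -0.18. The call of ATXN7 passed under all 15 alternatives, while those of MRPL34, KIF11 and MARCHF7 were lost in 7 of 14, 7 of 15 and 11 of 15. Between the treatments 7 were higher with torcetrapib, by 0.14 to 0.51: LMNB1, NR1D2, GGACT, MRPL34, TBCCD1, MFF and ATP5F1A. Of these calls only that of LMNB1 passed under all alternatives, and that of ATP5F1A was lost in 7 of 15. A further 11 genes were lower with torcetrapib. Among them DAB1-AS1, BAZ1B, ANKRD40, LGALS8 and NFATC1 had the largest differences, -0.41 to -0.35. Their calls were lost in 1 of 14, 4 of 15, 7 of 15, 6 of 14 and 6 of 15 alternatives, in that order. DAB1-AS1 was dim, at 3.51 (log2) with DMSO and 3.74 with angiotensin II. Leaving out single arrays moved the count of 3 with torcetrapib to between 0 and 6, that of 4 with angiotensin II to between 1 and 3, and that of 18 to between 7 and 11. With the RNA index in the model the counts were 1 with torcetrapib, 1 with angiotensin II and 1 between the treatments.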

How the data were processed

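The deposited table holds log2 expression per probe set, which the authors made with robust multi-array averaging (RMA), as the submitters' processing notes record. The RMA program and its chip file were not given in the sources used here. Values ran from 2.5 to 14.63. Arrays give no read depth, and their small number, 3 a group, limits the precision. Precision also differed between probe sets. The standard error of angiotensin II minus DMSO was 0.06 for DBP 209782_s_at and 0.16 for HLF 204755_x_at. Of 54675 probe sets, 62 controls were left out, 41091 had 1 gene symbol, 1801 several and 11721 none. No further normalisation was applied. One linear model of 3 group means was fitted to all 41091 probe sets with limma 3.58.1 in R 4.3.3 (variance moderation with an intensity trend, two-sided, Benjamini-Hochberg over all probe sets of a comparison, threshold 0.05), and tested on simulated data. Genes in lists were read from their brightest probe set, by the mean of the 9 arrays. Intervals are 95% and unadjusted.

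The members and lists were chosen with earlier results of these data known. The text names all probe sets of the members, all called genes of a list where at most 8 were called in a direction and otherwise the 5 with the largest difference, and the 5 genes nearest to NFIL3 and to DBP. PER2, CLOCK, BMAL1 and the genes named as dim or bright were chosen after their values were seen, and the CRE, its core and the E-box were added to the motif search after the data were examined. Titles number the samples consecutively within each group, so processing order cannot be told apart from treatment. Alternatives were other variance moderation, rescaling, filters, probe set choices, the control-gene 5′ to 3′ index as a covariate, 2-group fits, a threshold of 0.01 and each array left out.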

Additional observations from a re-analysis of the deposited data

How the results depend on the processing

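No paired analysis was possible because the labels give the groups no shared replicate numbers: their titles number the arrays differently in each group, and the numbers 1 to 3 used here only name them. The differences of NFIL3 and of DBP 209782_s_at kept their direction under every alternative run, but 209782_s_at has no value without _s_at and _x_at probe sets. In other results, TEF 225840_at torcetrapib minus DMSO was 0.047 with the mean of probe sets. Without _s_at and _x_at probe sets CREM torcetrapib minus DMSO was -0.00545, and for torcetrapib minus angiotensin II ATP5F1A was -0.28 and NFATC1 0.0034, all of the opposite sign to the value reported. These settings read other probe sets; what sets the probe sets of a gene apart was not tested, and nor was the cause of the changed counts below.

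With the 5′ to 3′ index fitted as a covariate, NFIL3 torcetrapib minus angiotensin II was -1.81, and the counts of called genes became 11 (other bZIP), 1 (clock regulators), 0 (D-box output) and 1 (D-box in the promoter) between the treatments, 4 (clock regulators) and 1 (D-box in the promoter) with angiotensin II and 1 (D-box in the promoter) with torcetrapib. With the mean of both DBP probe sets, DBP angiotensin II minus DMSO was -0.28 and torcetrapib minus angiotensin II 0.12. At a threshold of 0.01 the counts were 2 other bZIP genes and 0 D-box promoter genes with torcetrapib, 0 D-box promoter genes with angiotensin II, and 2 clock regulators, 1 D-box output gene and 5 D-box promoter genes between the treatments. With no intensity trend they were 2 other bZIP genes and 0 D-box promoter genes with torcetrapib, 1 D-box promoter gene with angiotensin II, and 2 clock regulators and 1 D-box output gene between the treatments. Quantile normalised again, 1 clock regulator passed with torcetrapib, 4 clock regulators, 2 D-box output genes and 8 D-box promoter genes with angiotensin II, and 7 clock regulators between the treatments. Tested with the brightest probe set of each gene only, 5 clock regulators and 8 D-box promoter genes passed with angiotensin II. Without _s_at and _x_at probe sets, 3 other bZIP genes passed with torcetrapib, and 2 clock regulators and 9 D-box promoter genes between the treatments. With only the 2 groups compared in the fit, 0 D-box promoter genes passed with torcetrapib and 1 with angiotensin II.

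Leaving out each array in turn gave 2 to 9 other bZIP genes, 0 to 1 clock regulators, 0 to 1 D-box output genes and 0 to 6 D-box promoter genes with torcetrapib. With angiotensin II it gave 1 to 3 clock regulators and 1 to 3 D-box promoter genes. Between the treatments it gave 2 to 3 clock regulators, 1 to 3 D-box output genes and 7 to 11 D-box promoter genes. The other bZIP counts with angiotensin II and between the treatments stayed at 16 to 18 and 15 to 17 without single arrays.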
